A study of Homo sapiens with 6 samples.

Results

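Interferon-stimulated genes are the genes whose transcription rises when a cell receives interferon, and 35 of them were followed here in the human hepatocellular carcinoma line JHH-4. They were chosen by name, with earlier results of these data known. Each of the 35 was found in the deposited table of 14034 gene rows, where DDX58 is the older symbol of RIGI. The data are messenger RNA counts from 2 groups of 3 libraries: control JHH-4 cells, whose genotype the submitters give as WT, and JHH-4 cells carrying a plasmid that encodes the primary transcript of miR-885-5p. Both groups come from the same line, the submitters describe the 3 libraries of a group as technical replicates, and the labels do not say what, if anything, was delivered to control cells. The p-values therefore measure the spread between such libraries, and the effect of the plasmid or its delivery cannot be told apart from that of the microRNA. No interferon treatment is named in the labels.

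Type I and type III interferons bind receptors that activate the kinases JAK1 and TYK2, which phosphorylate STAT proteins. STAT2 and IRF9 are subunits of the complex ISGF3, which binds the interferon-stimulated response element in promoters. IRF1 and IRF7 are themselves induced by interferon and bind closely related elements, while interferon gamma acts at gamma-activated sites. The products of the responding genes sense viral RNA, block entry, translation or release of viruses, or attach the ubiquitin-like protein ISG15 to other proteins. Many are also transcribed at a low basal rate in cells that have met no virus, as in hepatocytes and liver cancer lines.

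Library totals ran from 46382314 to 56409821 counts, and the 35 genes together took 0.0883 to 0.0892% of the counts in control and 0.0766 to 0.0774% in miR-885-5p libraries. The epithelial keratin genes KRT8 and KRT18 were present in both groups, at means of 1725 and 573 CPM in control and 1409 and 542 CPM with miR-885-5p, and the liver markers ALB, AFP, APOA1, APOB and TTR were not analysed here. Of 13 leukocyte markers, 3 were in the table: CD14, CSF1R and HLA-DRA summed to 48.1 to 52.7 CPM in control and 36.4 to 36.8 CPM with miR-885-5p. They moved in opposite directions: HLA-DRA fell from 43.1 ± 2.23 to 27.5 ± 0.495 CPM, while CSF1R rose from 6.07 ± 0.260 to 8.24 ± 0.153 CPM. CD14 fell from 1.41 ± 0.310 to 0.786 ± 0.282 CPM (adjusted p = 0.041 in edgeR). Its groups overlapped, and its lowest library held 29 reads. The part of such markers in the results was not tested. CPM is a gene's count scaled to the depth of its library, after TMM normalisation, each value after ± is an SD over 3 libraries, and a call means an adjusted p below 0.05 in edgeR's quasi-likelihood test over all 14034 genes.

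The sequences on which the comparison rests are the microRNA itself and the sites through which it could pair with these messengers. The mature strand of miR-885-5p in RefSeq lies at chr3:10394531-10394552 on the minus strand (GRCh38.p14). It is shown with its seed, bases 2 to 8, in capitals, followed by target sites in messenger RNA orientation with the match to the seed in capitals.
hsa-miR-885-5p: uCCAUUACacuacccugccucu
DDX58 3′ UTR: caggtatgtatatGTAATGGt
ZC3HAV1 3′ UTR: tctttttccaaatGTAATGGAt
APOL6 3′ UTR: taactaggtaaatGTAATGGg

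In the longest annotated 3′ UTR, 1 of 35 members (2.86%) held a match to the full seed, GTAATGG, against 8.01% of 12308 tested genes with an annotated 3′ UTR (exact 95% interval for the members 0.0723 to 14.9%, counting error only). That member was DDX58, with its site at chr9:32456460-32456466 on the minus strand (GRCh38), and its level was higher, not lower, with miR-885-5p. The longer 8-base match GTAATGGA was found in 0 of 35 members, and the weaker match TAATGGA, which lacks the base opposite position 8, in IFIT5, PARP9, PARP14 and SAMD9. Counting all 3 kinds of site, 14.3% of members and 17.2% of tested genes held at least 1. Among 62 other genes of the interferon pathway described further on, 4 (6.45%) held a full seed match, EIF2AK2, PML, ZC3HAV1 and APOL6. Each of these 4 was called lower, as were 48.4% of the 62 genes and 26.5% of all tested genes. Of the 986 tested genes with such a match, 350 were called lower and 244 higher. Of all 14034 genes, 3726 (26.5%) were lower and 3697 (26.3%) higher. A link between site and fall was not tested. ZC3HAV1, an antiviral RNA-binding protein, carries its 8-base match at chr7:139046201-139046208, and APOL6 its 7-base match at chr22:35664655-35664661.

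More members were lower than higher with miR-885-5p. Of the 35 genes, 17 fell, 3 rose and 15 did not pass the threshold, against 26.5% of all tested genes called lower and 26.3% called higher. The share of members called lower was thus 48.6% and of members called higher 8.57%. The median log2 fold change (miR-885-5p over control) was -0.26 over the 35 members and 0.00 over all genes. The 3 control and 3 miR-885-5p values did not overlap for 20 members on the lower side and 3 on the higher side, against 30.3% and 30.2% of all genes. The changes were mostly below 2-fold: 3 members, XAF1, BST2 and IRF1, fell at least 2-fold, where 2.29% of all genes did.

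**Figure D1:**
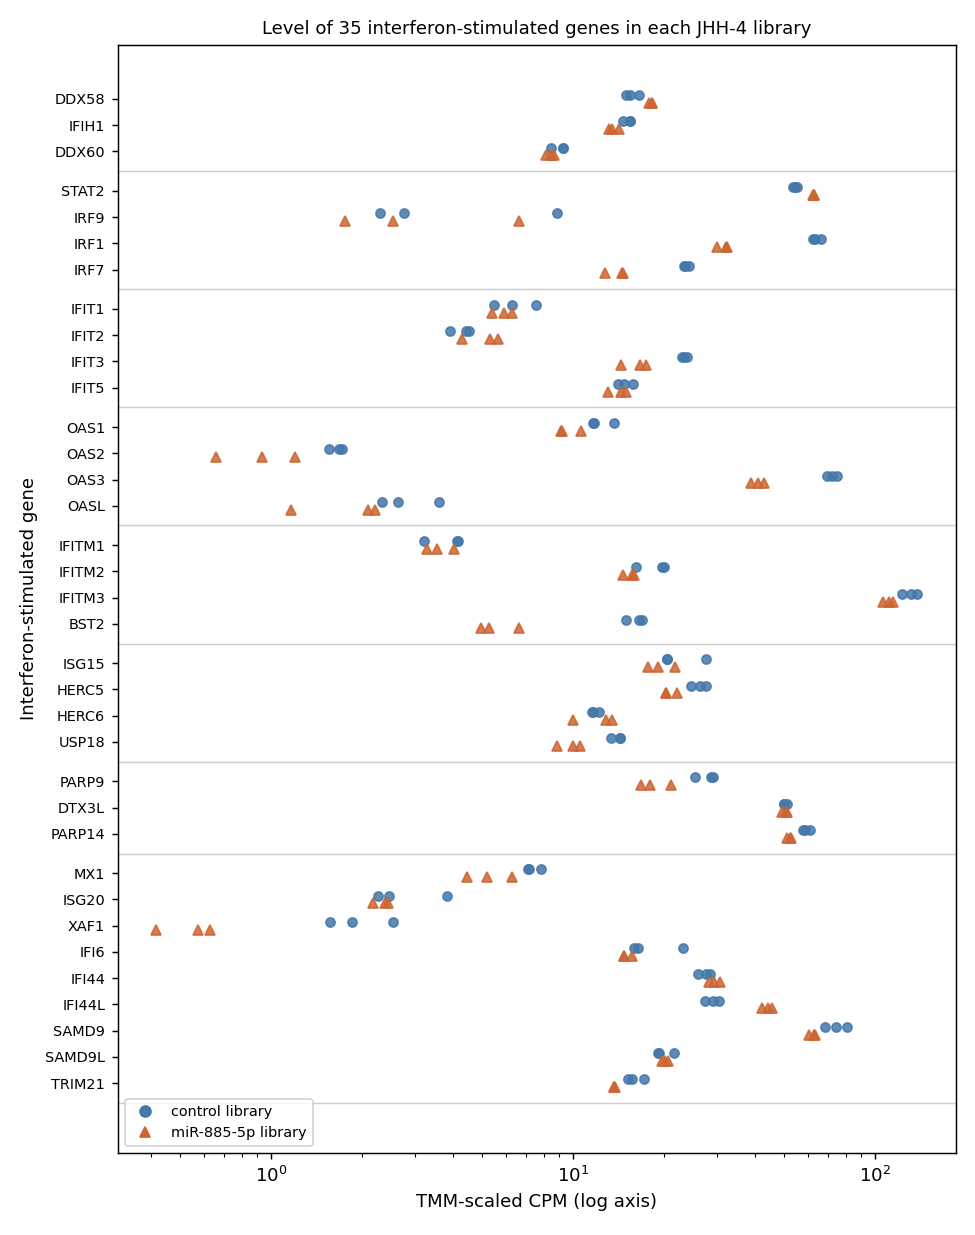
Each row is 1 of 35 interferon-stimulated genes, grouped by role, and the x axis is the TMM-scaled CPM on a log axis. Circles are the 3 control libraries and triangles the 3 miR-885-5p libraries; for IRF1, BST2 and OAS3 the 2 groups stand well apart, while for IRF9 the spread within each group exceeds the gap between them.

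**Figure D2:**
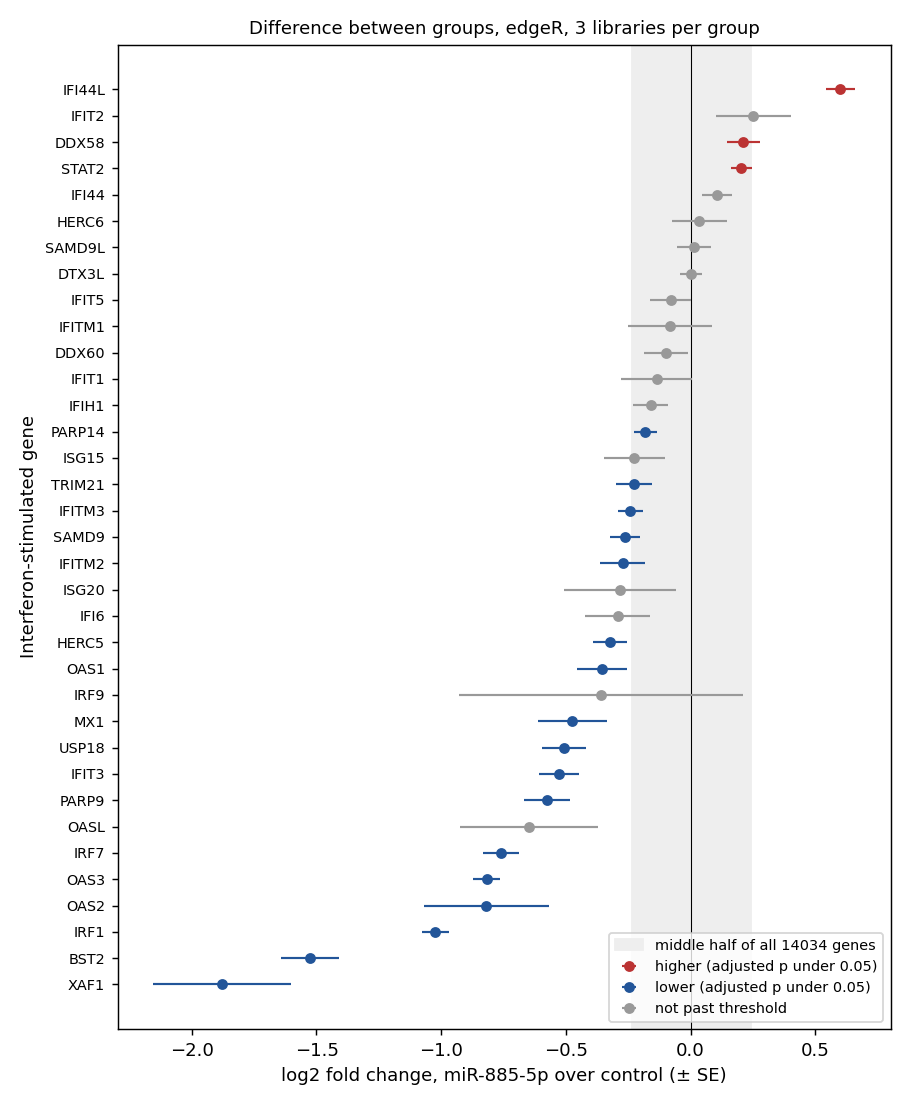
Points are log2 fold changes of miR-885-5p over control from edgeR, with bars of 1 SE, for the 35 genes in order of size, and the grey band holds the middle 50% of all 14034 genes. XAF1 at -1.88 and IFI44L at 0.60 are the ends of the range, with 17 genes called lower and 3 called higher.

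The transcription factors of the pathway did not move together. IRF1, a factor that activates interferon-stimulated and antigen-presentation genes, stood at 62.1, 66.0 and 63.4 CPM in control libraries 1 to 3 and at 29.9, 32 and 32.3 CPM in miR-885-5p libraries 1 to 3. The miR-885-5p libraries thus lay at about the same level as each other and far below every control library (log2 fold change -1.02, SE 0.05, adjusted p = 4.18e-07 in edgeR). IRF7, the factor that amplifies type I interferon production, fell from 23.4, 23.3 and 24.2 CPM to 12.7, 14.5 and 14.6 CPM (log2 fold change -0.76, SE 0.07). STAT2, the subunit that carries the activation domain of ISGF3, went the other way, from 55.2, 53.4 and 54.1 CPM to 62.6, 62.1 and 62.6 CPM, a small rise with little spread (log2 fold change 0.20, SE 0.04, adjusted p = 0.00257 in edgeR).

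IRF9, the DNA-binding subunit of ISGF3, had the largest SE of the 35 genes (log2 fold change -0.36, SE 0.57) and was not called. Its control libraries stood at 8.87, 2.29 and 2.76 CPM and its miR-885-5p libraries at 6.62, 1.75 and 2.54 CPM, so library 1 of each group was well above the other 2. IRF9 shares 1838 exon bases on the same strand with the annotated gene AL136295.5, whose counts were lowest where those of IRF9 were highest: 581, 1209 and 915 in control and 654, 1390 and 1035 with miR-885-5p, beside 422, 108 and 136 and then 312, 101 and 133 for IRF9. The sum of both genes was 20.7, 27.3 and 21.1 CPM (by total count, without TMM) in control and 20.8, 26.4 and 22.6 with miR-885-5p, which overlap. Without control library 1 the log2 fold change of IRF9 was 0.52, and without miR-885-5p library 1 it was -1.11. Each of these fits kept the high library 1 of the other group only. The sign turned in the first of them and not in the second. With the replicate number as a block it was -0.31 (adjusted p = 0.154 in edgeR), again not called. The labels do not say how reads common to both genes were assigned, so the level of IRF9 is uncertain.

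IRF1 lies at chr5:132481609-132490798 on the minus strand (GRCh38) and shares 469 exon bases on the opposite strand with AC116366.3, which also had a lower value (log2 fold change -1.89, not called, groups overlapping), and 1716 with C5orf56, not analysed here, so reads there cannot be assigned without strand. The 50 tested genes around IRF1, 25 on each side, had a median log2 fold change of -0.17. Of these 50, 23 were called lower and 4 higher, beside 26.5% and 26.3% of all genes. The fall of IRF1 itself was larger than that median.

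DDX58, IFIH1 and DDX60, grouped here as cytosolic sensors of viral RNA and a related gene, changed little. DDX58, which encodes the cytosolic sensor RIG-I, rose from 16.5, 15 and 15.4 CPM to 18.2, 18.2 and 17.8 CPM (log2 fold change 0.21, SE 0.07, adjusted p = 0.0232 in edgeR), a difference without overlap but of small size. The call of DDX58 ended without control library 2 or without miR-885-5p library 1 or 2, where its adjusted p was 0.0671, 0.0663 and 0.0672. IFIH1, which encodes the related sensor MDA5, had a log2 fold change of -0.16 (adjusted p = 0.082) and the helicase-like gene DDX60 one of -0.10 (adjusted p = 0.38); neither was called.

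All 4 genes of the 2′-5′ oligoadenylate synthetase family were lower in the miR-885-5p libraries, without overlap, as were 30.3% of all genes. Of the 4, 3 were called lower (75%), against 26.5% of all genes. The enzymes of this family make the second messenger that activates RNase L, except OASL, which lacks that activity. OAS3, the most abundant of them, fell from 72.0, 74.5 and 69.3 CPM to 38.7, 42.9 and 40.8 CPM (log2 fold change -0.82, SE 0.05, adjusted p = 1.95e-06 in edgeR). OAS1 fell less, from 11.7, 13.7 and 11.6 CPM to 10.6, 9.21 and 9.16 CPM (log2 fold change -0.35, SE 0.10), and OAS2 from 1.56, 1.68 and 1.73 CPM to 0.658, 1.2 and 0.937 CPM (log2 fold change -0.82, SE 0.25). The weak genes of the family carried the widest errors, and OASL, at 2.33, 2.63 and 3.61 CPM against 2.10, 2.2 and 1.17 CPM, differed by -0.65 on the log2 scale (SE 0.28, adjusted p = 0.0732 in edgeR, 0.0341 in DESeq2). The calls of OAS1 and OAS2 did not hold in every fit with 1 library left out. Without miR-885-5p library 2 or 3 the adjusted p of OAS1 in edgeR was 0.0533 and 0.0503 (log2 fold change -0.32 and -0.31). Without miR-885-5p library 1 or 3 that of OAS2 was 0.0692 and 0.0548 (log2 fold change -0.62 and -0.82).

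In the IFIT family, whose proteins bind viral RNA ends and restrain translation, 1 of 4 genes was called, on the lower side. This share (25%) was near that of all genes called lower (26.5%). IFIT3 fell from 22.9, 23.9 and 23.3 CPM to 14.4, 16.7 and 17.4 CPM (log2 fold change -0.53, SE 0.08, adjusted p = 3.62e-04 in edgeR). Its neighbours on chromosome 10 did not pass the threshold: IFIT1 had a log2 fold change of -0.14 (adjusted p = 0.445), IFIT2 of 0.25 (adjusted p = 0.185) and IFIT5 of -0.08 (adjusted p = 0.442). Among the 50 tested genes around IFIT3, 9 were called lower and 18 higher, beside 26.5% and 26.3% of all genes. Their median log2 fold change was 0.12, while that of IFIT3 was -0.53.

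Among restriction factors that act at membranes, BST2 changed most. BST2, also known as tetherin, holds budding virions at the cell surface, and its level was 16.5, 15 and 16.8 CPM in control and 6.62, 5.26 and 4.95 CPM with miR-885-5p (log2 fold change -1.52, SE 0.12, adjusted p = 4.99e-06 in edgeR). The gene lies at chr19:17402939-17405648 on the minus strand, and the 50 tested genes around it had a median log2 fold change of 0.07. Of these, 18 were called higher and 9 lower, beside 26.3% and 26.5% of all genes. The IFITM genes, whose products hinder the fusion of enveloped viruses with endosomes, fell by far less. IFITM3, the most abundant, fell from 131, 138 and 122 CPM to 111, 106 and 114 CPM (log2 fold change -0.24, SE 0.05, adjusted p = 0.0029 in edgeR), and IFITM2 from 20.0, 19.7 and 16.2 CPM to 15.6, 14.6 and 15.9 CPM (log2 fold change -0.27, SE 0.09). IFITM1 had a log2 fold change of -0.08 and was not called.

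The values of IFITM1, IFITM2 and IFITM3 are uncertain, because the family is near identical in sequence. IFITM1 and IFITM2 also share 351 annotated exon bases, and IFITM3 shares 287 with AC136475.5 on the opposite strand. The call of IFITM2 (adjusted p = 0.0288) ended without control library 1 or 2 or miR-885-5p library 1 or 2, at adjusted p = 0.106, 0.0798, 0.0651 and 0.1, and likewise under total-count scaling (adjusted p = 0.0548) and with the replicate block (adjusted p = 0.054).

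The genes of ISG15 conjugation were lower in part. ISG15 itself, the ubiquitin-like modifier, stood at 20.4, 20.4 and 27.6 CPM in control and 19.1, 21.7 and 17.7 CPM with miR-885-5p, ranges that overlap (log2 fold change -0.23, SE 0.12, adjusted p = 0.152 in edgeR), and without control library 3, its highest, it was -0.07 (adjusted p = 0.563). HERC5, its main ligase, fell from 26.3, 24.5 and 27.6 CPM to 20.3, 20.4 and 22.0 CPM (log2 fold change -0.32, SE 0.07). USP18, which removes ISG15 and also restrains the interferon receptor, fell from 14.2, 14.3 and 13.3 CPM to 9.99, 8.87 and 10.6 CPM (log2 fold change -0.51, SE 0.09, adjusted p = 8.88e-04 in edgeR). Both HERC5 and USP18 were thus separated between the groups, while HERC6, the neighbour of HERC5, had a log2 fold change of 0.04 (adjusted p = 0.809), which was -0.05 without miR-885-5p library 2.

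PARP9 and DTX3L form a complex of an ADP-ribosyltransferase family member and a ubiquitin ligase, and their genes overlap head to head on chromosome 3. PARP9 fell from 29.1, 28.7 and 25.4 CPM to 16.8, 17.9 and 21.0 CPM (log2 fold change -0.58, SE 0.09, adjusted p = 5.37e-04 in edgeR). DTX3L stood at 50.1, 51.0 and 50.1 CPM in control and 51.2, 49.3 and 50.6 CPM with miR-885-5p, which overlap (log2 fold change 0.00, SE 0.04, adjusted p = 0.989 in edgeR). The 2 genes share 217 exon bases on opposite strands, and reads there cannot be assigned without strand. PARP14, a mono-ADP-ribosyltransferase close by, fell slightly, from 57.6, 58.4 and 60.7 CPM to 51.0, 52.6 and 52.3 CPM (log2 fold change -0.18, SE 0.05).

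The other effectors held both the largest fall and the largest rise of the 35 genes. XAF1, an inhibitor of the apoptosis inhibitor XIAP, was weak and fell from 1.85, 1.57 and 2.54 CPM to 0.573, 0.416 and 0.631 CPM (log2 fold change -1.88, SE 0.28, adjusted p = 3.17e-04 in edgeR), with 24 reads in its lowest library. It shares 2535 exon bases with PRAL on the opposite strand, so its level is uncertain without strand. IFI44L rose from 27.3, 29 and 30.5 CPM to 44.3, 42.1 and 45.4 CPM (log2 fold change 0.60, SE 0.06, adjusted p = 2.69e-05 in edgeR), so that every miR-885-5p library was above every control library. IFI44, 3650 bases away on chromosome 1, had a log2 fold change of 0.11 and was not called (adjusted p = 0.16). The 50 tested genes around IFI44L had a median log2 fold change of -0.22, so IFI44L moved against that median. Of these 50, 30 were called lower and 6 higher, beside 26.5% and 26.3% of all genes.

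MX1, a dynamin-like GTPase that traps viral nucleocapsids, fell from 7.84, 7.10 and 7.12 CPM to 6.28, 4.46 and 5.18 CPM (log2 fold change -0.47, SE 0.14), a call that ended without control library 1 (adjusted p = 0.0651) or miR-885-5p library 2 (adjusted p = 0.063). SAMD9, a restriction factor of poxviruses, fell from 74.3, 80.8 and 68.4 CPM to 63.2, 62.8 and 60.4 CPM (log2 fold change -0.26, SE 0.06), whereas its paralogue SAMD9L had a log2 fold change of 0.01 (adjusted p = 0.879). TRIM21, the cytosolic antibody receptor, fell from 15.3, 17.1 and 15.7 CPM to 13.7 CPM in each miR-885-5p library (log2 fold change -0.23, SE 0.07). The call of TRIM21 (adjusted p = 0.0241) ended without control library 2 or without any 1 of the miR-885-5p libraries, at adjusted p from 0.061 to 0.0797, and under total-count scaling at adjusted p = 0.0577. The exonuclease gene ISG20 was not called (log2 fold change -0.28, adjusted p = 0.316) and stood at -0.01 without control library 3.

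IFI6, a mitochondrial and endoplasmic reticulum protein that protects against apoptosis, shows how 1 library can set a call. It stood at 15.9, 16.3 and 23.1 CPM in control and at 15.7, 14.8 and 14.8 CPM with miR-885-5p, where control library 3 was well above the other 2. It was not called with all libraries (log2 fold change -0.29, adjusted p = 0.0861 in edgeR) but passed without control library 1 (adjusted p = 0.0411) or control library 2 (adjusted p = 0.0418) and in DESeq2 (adjusted p = 0.0399). Without control library 3 its log2 fold change was -0.10 (adjusted p = 0.305), so the size of the difference rested on that library. Of the 50 tested genes around IFI6 on chromosome 1, 35 were called lower and 2 higher, beside 26.5% and 26.3% of all genes. Their median log2 fold change was -0.30. ISG15, also on chromosome 1, lay among 31 such genes with a median of -0.21.

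Compared per transcript length, by the authors' FPKM (fragments scaled by transcript length and library depth), the members spanned a wide range of levels. In control, 9 members stood at 10 FPKM or more, 23 between 1 and 10 FPKM and 3 below 1 FPKM. IFITM3 was highest at 145 ± 6.77 FPKM, followed by ISG15 at 31.8 ± 6.03, IFITM2 at 21.5 ± 0.586 and IFI6 at 19.9 ± 4.60 FPKM. IFITM2 and IFI6 did not differ beyond their spread, and ISG15 and IFITM3 stood above them. IRF1 and STAT2 were close to each other in control, at 16.4 ± 0.539 and 15.5 ± 0.428 FPKM, but at 8.42 ± 0.153 and 18.6 ± 0.0247 FPKM with miR-885-5p, so that STAT2 was then the higher of the 2. OASL, XAF1 and OAS2 were the weakest, at 0.916 ± 0.226, 0.502 ± 0.138 and 0.474 ± 0.0654 FPKM in control, and XAF1 and OAS2 did not differ beyond their spread.

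**Figure D3:**
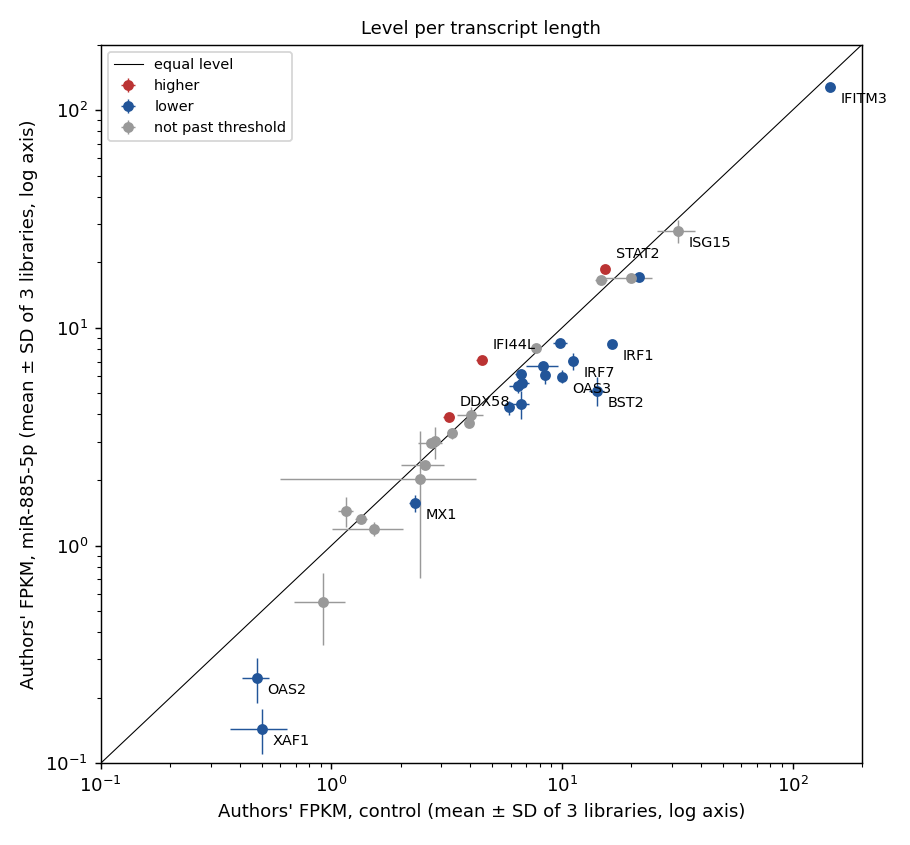
Axes give the authors' FPKM in control (x) and with miR-885-5p (y) on log axes, as means of 3 libraries with bars of 1 SD; the line marks equal levels. Called genes lie below the line for BST2, IRF1 and OAS3 and above it for IFI44L, STAT2 and DDX58, while IFITM3, the most abundant at 145 FPKM in control, lies just below it.

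Neighbouring or related members were set against each other within each library, which removes scaling, for 8 pairs picked after their values had been seen. The ratio of PARP9 to DTX3L was 0.582, 0.564 and 0.507 in control and 0.328, 0.364 and 0.416 with miR-885-5p. The ratio of IFI44L to IFI44 was 0.991, 1.12 and 1.07 in control and 1.57, 1.44 and 1.48 with miR-885-5p, and that of SAMD9 to SAMD9L was 3.88, 3.74 and 3.56 against 3.14, 3.18 and 2.93. These 3 pairs did not overlap between the groups, and neither did IFIT3 to IFIT2 (a log2 ratio lower by 0.78) and OAS3 to OAS1 (lower by 0.47). The ratios of IFIT3 to IFIT1, HERC5 to HERC6 and IFITM3 to IFITM1 overlapped. With 3 libraries against 3 the two-sided exact permutation test cannot go below p = 0.1, the value for each of the 5 separated pairs (0.16 after Benjamini-Hochberg adjustment over the 8 pairs).

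**Figure D4:**
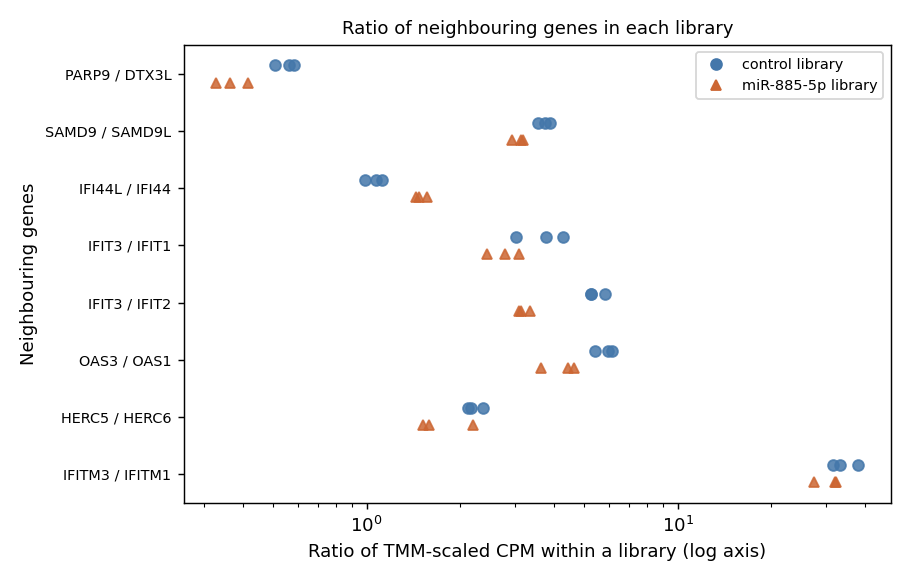
Each row is a pair of neighbouring genes, and the x axis is the ratio of their TMM-scaled CPM within a library on a log axis; circles are control and triangles miR-885-5p libraries. The groups stand apart for 5 of 8 pairs, with PARP9 over DTX3L at 0.507 to 0.582 in control and 0.328 to 0.416 with miR-885-5p.

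The promoters show what the members have in common beside their name. RefSeq promoter windows (250 bases before to 50 bases after a gene's start, GRCh38.p14) were matched for 29 of the 35 members; IRF7, IFIT2, OAS2, OASL, IFITM2 and USP18 were not matched. The core of the interferon-stimulated response element, GAAANNGAAA on either strand, was found for 21 of 29 members (72.4%) against 4.38% of 27305 genes with a window. A gamma-activated site of the form TTCNNNGAA, which reads the same on both strands, was found for 8 members (27.6%) against 9.38% of all genes. Of members that fell, 10 of 13 with a window held the response element core, as did 10 of 13 members that were not called and 1 of the 3 that rose. The presence of this core thus did not separate the genes that fell from those that were not called. A gamma-activated site was found for 5 of 13 members that fell (38.5%), 3 of 13 not called (23.1%) and 0 of 3 that rose. This difference was not tested.

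These stretches show the motif in capitals, on the strand of the gene, for members that fell, rose or were not called. TTTC on this strand is the GAAA of the opposite strand. The first is a gamma-activated site and the rest are response element cores; in BST2 and ISG15 a further core overlaps the one shown, and in BST2 a gamma-activated site overlaps it as well.
IRF1 (fell) chr5:132490879-132490907, minus strand: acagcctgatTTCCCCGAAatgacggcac
BST2 (fell) chr19:17405741-17405770, minus strand: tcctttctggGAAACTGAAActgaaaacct
OAS3 (fell) chr12:112938321-112938350, plus strand: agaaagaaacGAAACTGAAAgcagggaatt
IFIT3 (fell) chr10:89332425-89332454, plus strand: acagattctgTTTCAGTTTCccctcaagag
PARP9 (fell) chr3:122564322-122564351, minus strand: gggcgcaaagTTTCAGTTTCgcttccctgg
ISG15 (not called) chr1:1013380-1013409, plus strand: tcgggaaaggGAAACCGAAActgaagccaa
IFIT1 (not called) chr10:89392497-89392526, plus strand: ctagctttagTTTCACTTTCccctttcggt
IFI44L (rose) chr1:78620365-78620394, plus strand: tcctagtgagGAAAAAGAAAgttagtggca

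BST2 and OAS3, which fell by 1.52 and 0.82 on the log2 scale, hold the same 10 bases as core. Read on either strand, these bases were found as core for 5 members that fell (BST2, OAS3, IFIT3, PARP9 and SAMD9) and for 3 that were not called (DDX60, ISG20 and IFI44), beside DTX3L, which shares that of PARP9. The core in the window of PARP9 is the same stretch of DNA as the only core in the window of DTX3L, and PARP9 fell while DTX3L was not called. IFI44L, which rose, holds its core 2 times within its window, with identical bases around it. A match describes the letters in the window and is not evidence of binding.

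Genes upstream and beside the 35 members were taken from 5 further lists of 84 genes, of which 62 were in the table: 30 were lower (48.4%), 3 higher (4.84%) and 29 not called, with a median log2 fold change of -0.20, beside 26.5% and 26.3% of all genes. The 10 listed interferon genes were not among the 62 in the table and were not analysed here. Among receptor and kinase genes, IFNLR1, the receptor chain for type III interferon, stood at 7.93 ± 0.697 CPM in control and fell by 0.60 on the log2 scale (SE 0.12) to 5.23 ± 0.465 CPM, and JAK1 fell by 0.26. The type I receptor genes IFNAR1 and IFNAR2 had log2 fold changes of -0.14 and -0.13 and were not called. Of 7 negative regulators, SOCS3, a feedback inhibitor of JAK signalling, fell by 0.46 on the log2 scale, from 91.7 ± 8.06 to 66.7 ± 1.15 CPM. PIAS4 was called higher at an adjusted p of 0.0499 in edgeR (log2 fold change 0.16, SE 0.06), a call that ended with the replicate block and without any 1 of 5 libraries, control 1 and 3 and miR-885-5p 1 to 3, at adjusted p from 0.0775 to 0.154.

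Of 11 genes of nucleic acid sensing and its relay, 3 fell (27.3%) and 2 rose (18.2%), shares near those of all genes (26.5% and 26.3%). TMEM173, which encodes the DNA-sensing adaptor STING, fell from 17.0, 19.5 and 15.2 CPM to 9.46, 9.08 and 9.48 CPM (log2 fold change -0.88, SE 0.10, adjusted p = 4.94e-05 in edgeR). TLR3, the endosomal receptor for double-stranded RNA, fell by 0.66 and TRIM25, a ligase that activates RIG-I, by 0.30 on the log2 scale. The kinase gene IKBKE rose from 11.4, 10.8 and 13.4 CPM to 17.6, 18.6 and 17.4 CPM (log2 fold change 0.59, SE 0.09), and TICAM1, the adaptor of TLR3, by 0.35. MAVS, the adaptor of the RNA sensors, stood at 212 ± 6.35 CPM in control and 211 ± 7.02 CPM with miR-885-5p (adjusted p = 0.912 in edgeR).

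Further interferon-stimulated genes outside the 35 fell in 23 of 34 measured cases (67.6%, against 26.5% of all genes). The other 11 were not called, and the median log2 fold change of the list was -0.29. This list was chosen with earlier results of these data known, so its share is not independent support for that of the members. The 4 with the smallest adjusted p were APOL1 and APOL6, apolipoprotein L genes on chromosome 22, and the guanylate-binding protein genes GBP1 and GBP3. APOL1 stood at 175, 182 and 183 CPM in control and 93.9, 93.8 and 91.7 CPM with miR-885-5p (log2 fold change -0.95, SE 0.04). APOL6 stood at 66.2, 65.5 and 63.4 CPM against 31.3, 33.3 and 33.1 CPM (log2 fold change -0.997, SE 0.05). Both apolipoprotein genes stood at 51.6% and 50.1% of their control level, and in neither did the groups overlap. GBP1 and GBP3, neighbours on chromosome 1, fell by 0.94 and 1.19 on the log2 scale.

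**Figure D5:**
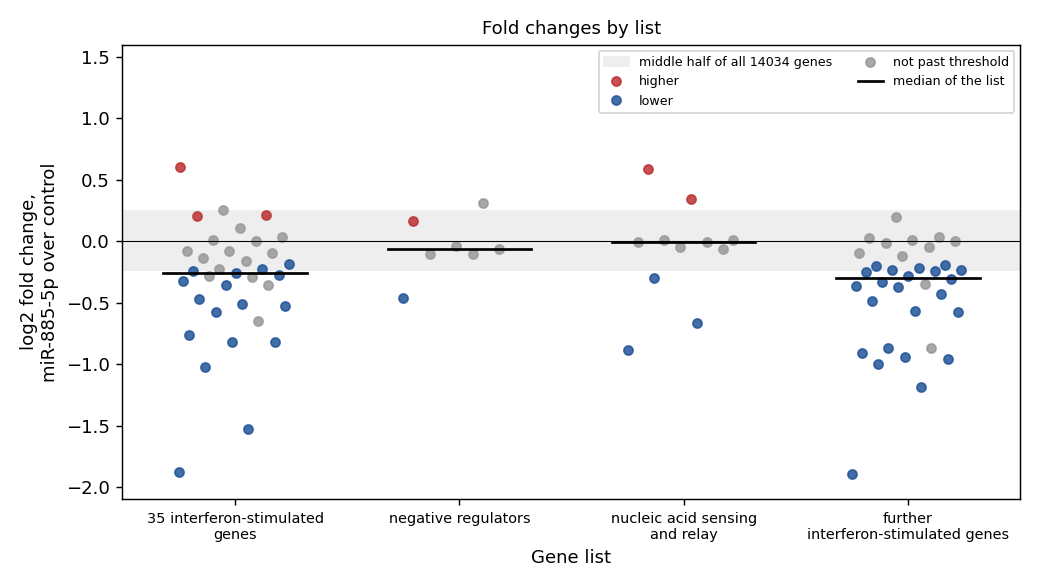
Each point is a gene of the 35 members or of 3 further lists (negative regulators, sensing and relay, further interferon-stimulated genes), and the y axis is its log2 fold change, miR-885-5p over control; black bars are list medians and the grey band holds the middle 50% of all 14034 genes. The 35 interferon-stimulated genes (median -0.26) and the further ones (median -0.29) lie mostly below 0, while the sensing and relay list has its median at -0.01.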

How the data were processed

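RNA-seq counts of 6 JHH-4 libraries (3 control, 3 miR-885-5p) were analysed. Per the file headers, the authors deposited a raw count and an FPKM per gene and library, and a p-value and log2 fold change of their own, whose test is not named. GRCh38, DESeq2 1.38.3, StringTie 2.2.1 and HISAT2 2.0.4 appear without roles in the submitters' processing notes, and the labels state neither the counting tool, nor its use of strand, nor the rule that left out weak genes. In the authors' deposited table all 35 members had the same sign of log2 fold change as here. The test of the counts was that of edgeR 4.0.16 under R 4.3.3 (TMM, filterByExpr, which removed 0 genes, quasi-likelihood F test, Benjamini-Hochberg over 14034 genes); an SE is the fold change over the root of F. Groups came from the sample titles. The alternatives used DESeq2 1.42.0, limma-voom 3.58.1, other scalings and filters, the replicate number as a block and each library left out. The fits were tested on simulated data. Positions and 3′ UTRs are those of GENCODE 29 (protein-coding transcripts), with all 35 IDs matched; the microRNA and promoters are from RefSeq. All members are accounted for, with values per library for each called one; from each pathway list the 4 called genes with the smallest adjusted p are named where reported, and genes beyond that were picked after their values were seen. The members and lists were chosen with earlier results of these data known. Precision was lowest for IRF9, and then for weak genes such as OASL, XAF1 and OAS2. Results for some genes of the lists are not reported here.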

Additional observations from a re-analysis of the deposited data

How the results depend on the processing

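Counts of interferon-stimulated genes lower and higher ran from 15 to 19 and stayed at 3 over 8 other tests, scalings and filters, and from 13 to 17 and 2 to 3 when 1 library was left out. The pathway lists gave 29 to 30 genes lower and 2 to 3 higher, and 29 to 34 and 2 to 4 with 1 library left out. With the replicate block 16 members were lower and 3 higher. Over all genes, same-numbered libraries of the 2 groups did not deviate together (correlations of -0.135, -0.0671 and -0.159), unlike for IRF9. The block is therefore given only as a check. A test against a 1.5-fold change called 4 members lower (IRF1, OAS3, BST2 and XAF1) and 0 higher, as its stricter construction implies. The median log2 fold change over the members, -0.26 as reported, was -0.246 with limma-voom, -0.248 with upper-quartile scaling and -0.213 with total-count scaling. It lay between -0.26 and -0.23 with 1 library left out. The median over all genes was -0.0006 in the main fit, 0.0128 with upper-quartile scaling and 0.0474 with total-count scaling, so it moved up under both scalings too. The cause was not tested. Of 490 comparisons of a member with an alternative, 20 lost a call and 4 gained one, and 14 called members kept their call throughout. The sign of the log2 fold change turned in 11 comparisons of 4 members that were not called, IRF9, DTX3L, SAMD9L and HERC6, and in 0 of called members. By the 8-base site alone 0% of members held a seed match, against 2.54% of all tested genes, and by any 7-base or 8-base site 14.3% against 17.2%.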

Other observations

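IFI30, an interferon-induced lysosomal reductase gene in the list of further interferon-stimulated genes, was not called although its mean was lower with miR-885-5p. It stood at 35.3, 31.9 and 41.9 CPM in control libraries 1 to 3 and at 28.9, 4.51 and 26.6 CPM in miR-885-5p libraries 1 to 3, so library 2 alone was far below the rest (log2 fold change -0.87, SE 0.48, adjusted p = 0.151 in edgeR). The cause was not tested. This gene was picked after its values had been seen.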
